A study of Mus musculus with 4 samples.

Results

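The mRNAs of 10 RNA-binding proteins that store or repress maternal mRNA were followed in late two-cell mouse embryos treated with 10074-G5, a small molecule that binds MYC and prevents its pairing with MAX. The genes are Zar1, Zar1l, Ybx2, Cpeb1, Dazl, Igf2bp2, Igf2bp3, Lin28a, Ddx6 and Patl2. They were taken by gene symbol, from a list drawn up with earlier results of these data known. All 10 were found among the 24411 genes of the deposited tables. Polyadenylated RNA was sequenced in 4 libraries of 10 pooled ICR embryos, which had been fertilized in vitro, cultured in KSOM with serum albumin and harvested 36 hours post-insemination (hpi). Control embryos (2 libraries) were cultured with DMSO, the solvent, and 10074-G5-treated embryos (2 libraries) with 6 µM of the inhibitor, both from the one-cell stage, with the start given as 3 hpi in the sample labels and 6 hpi in the series description. The replicates are called biological in the study, but whether they came from separate fertilizations and how much RNA an embryo held are not given in the sources used here, so that p-values measure the spread between these libraries, which may be technical, and levels are relative to the other mRNAs of the library. Fewer transcripts and a shorter poly(A) tail cannot be told apart in such libraries, nor can a change in the amount of an mRNA and a change in that of all others.

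A growing oocyte transcribes far more mRNA than it translates at once, and keeps much of it silent until meiotic maturation or fertilization. RNA-binding proteins coat this mRNA, hold its poly(A) tail short or keep the cap-binding machinery away, and collect it in cytoplasmic assemblies. In the mouse most maternal mRNA, including that of many of these proteins themselves, is cleared by the two-cell stage, while the embryonic genome takes over transcription.

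Because MYC and MAX together bind the E-box CACGTG, the promoters of the genes were searched for it. A promoter sequence (RefSeq, GRCm38.p6, the build of mm10; 250 bases before to 50 bases after a transcript start, 300 bases in all) was matched for 9 genes, and no entry was matched for Ddx6. Ybx2 had an entry for each of 2 starts, which made 10 promoters. CACGTG, a palindrome and thus the same on both strands, was present in 2 of them, those of Igf2bp3 and Cpeb1, against 7.15% of all 32851 promoters and 9.71% of the 12995 promoters of genes tested here. Igf2bp3 carried it at 2 places, beginning at position -23 and position 6 relative to the start, and Cpeb1 at 1 place, beginning at position 25. These 2 promoters are shown with the E-box in capitals, followed by that of Zar1, the gene whose level varied most between the control libraries, in which the 6 letters were not found. The Igf2bp3 promoter lies at chr6:49214905-49215204, that of Cpeb1 at chr7:81454709-81455008 and that of Zar1 at chr5:72581035-72581334, all on the minus strand, and a match is a description of the letters and not of binding.
Igf2bp3: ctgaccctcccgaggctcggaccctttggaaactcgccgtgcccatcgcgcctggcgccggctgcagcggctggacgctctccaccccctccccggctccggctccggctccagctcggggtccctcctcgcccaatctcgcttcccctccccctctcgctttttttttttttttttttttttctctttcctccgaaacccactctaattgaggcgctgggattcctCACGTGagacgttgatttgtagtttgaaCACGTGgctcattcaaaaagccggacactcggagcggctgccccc
Cpeb1: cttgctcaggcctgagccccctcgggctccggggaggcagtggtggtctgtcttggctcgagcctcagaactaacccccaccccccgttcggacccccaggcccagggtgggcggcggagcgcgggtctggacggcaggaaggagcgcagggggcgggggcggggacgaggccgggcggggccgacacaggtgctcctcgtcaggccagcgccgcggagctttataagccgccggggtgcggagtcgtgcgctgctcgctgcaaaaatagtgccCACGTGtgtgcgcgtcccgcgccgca
Zar1: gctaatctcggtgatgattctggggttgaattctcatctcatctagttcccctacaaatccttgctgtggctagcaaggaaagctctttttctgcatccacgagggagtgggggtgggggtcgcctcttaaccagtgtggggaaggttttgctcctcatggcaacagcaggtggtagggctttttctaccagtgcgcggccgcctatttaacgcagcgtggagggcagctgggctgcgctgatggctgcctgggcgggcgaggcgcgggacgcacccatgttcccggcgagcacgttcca

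CPEB1 binds the cytoplasmic polyadenylation element of stored mRNAs, and the transcripts of the 10 genes were themselves searched for it as TTTTAT or TTTTAAT, on the transcript strand, within 150 bases of the 3' end (GENCODE M21, GRCm38). It was found in 2 of the 10 transcripts, those of Ybx2 and Lin28a, against 24.5% of 12797 tested genes with a matched transcript. The element of Ybx2 began 62 bases from the end and that of Lin28a 140 bases from it. The 30 bases around each lie in the last exon, within the 3' untranslated region, at chr11:69941532-69941561 on the plus strand for Ybx2 and chr4:134003452-134003481 on the minus strand for Lin28a, and the element is in capitals.
Ybx2: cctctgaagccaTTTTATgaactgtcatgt
Lin28a: ctgcctggggtgTTTTATttcctagttgat
The annotated ends may differ from those used in the embryo, and 8 of the 10 transcripts had a polyadenylation signal (AATAAA or ATTAAA) in the same window, against 82.5% of the tested genes.

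The libraries held between 18206584 and 20718690 expected counts. DMSO replicate 1 stood apart from the other 3 libraries: its Pearson's r with them in log2 CPM (the count scaled to the TMM-adjusted total of its library), taken across 13549 tested genes that are no independent replicates, lay between 0.857 and 0.917, whereas r lay between 0.941 and 0.958 among the other 3. Of 10 markers of the two-cell embryo, 9 (genes of the Zscan4, Tdpoz and Usp17l families, and Zfp352) summed to 829 CPM in DMSO replicate 1, 2809 CPM in DMSO replicate 2 and 4101 and 3649 CPM in the treated libraries. The other marker, Dppa2, singled out after its values were seen, had the opposite direction, with 1794 and 359 CPM in the control libraries and 169 and 178 CPM in the treated libraries (log2FC -2.63, or -1.03 without DMSO replicate 1; adjusted p = 0.333 by edgeR and 0.00245 by DESeq2 with effective lengths, which called it lower, and from 2.8e-05 to 0.992 over all alternatives). The 9 cumulus cell markers summed to between 1.80 and 11.6 CPM, with Amh, Inha, Ptx3 and Foxl2 at 0 counts in every library. The others were low and uneven, with Tnfaip6 at 0, 95, 93 and 38 counts in DMSO replicates 1 and 2 and treated replicates 1 and 2, Cyp19a1 at 23, 25, 128 and 27, Has2 at 1, 0, 30 and 5, Ptgs2 at 6, 28, 0 and 14, and Fshr at 0, 14, 0 and 0. The 6 sperm markers summed to between 1.43 and 5.43 CPM, of which Prm2 made up most in 3 libraries, with 10 and 27 counts in control and 111 and 39 counts in treated embryos, and Prm1, Tnp2 and Smcp had 0 counts throughout. The part of cumulus or sperm RNA in the results was not tested. Because DMSO replicate 1 stood apart, each gene for which a log2FC is printed is also given its log2FC without that library.

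Together the 10 mRNAs made up 322 CPM in DMSO replicate 1, 548 CPM in DMSO replicate 2, and 592 and 680 CPM in the treated replicates 1 and 2. The treated libraries were the higher ones, and the gap between the control libraries was larger than the gap from DMSO replicate 2 to either treated library. This sum follows the most abundant mRNAs, with Dazl alone at 69.2 and 209 CPM in control and 192 and 259 CPM in treated embryos. Zar1l, Lin28a and, slightly, Ddx6 were instead higher in DMSO replicate 1 than in DMSO replicate 2. A gene was called where its level changed more than 2-fold (log2FC past 1 in size) with an adjusted p under 0.05. By the quasi-likelihood test of edgeR, 0 of the 10 genes were called higher and 0 lower in treated embryos, as were 0.0% of the 13549 tested genes in each direction. An unadjusted p under 0.05 by edgeR was reached by 0 of the 10, against 14.9% of all tested genes (4.72% higher and 10.1% lower). With DESeq2 it was reached by 1 of them, Ybx2, but the share of all genes reaching it with DESeq2 was not computed. DESeq2 gave an adjusted p to 9 of the 10 genes, all but Patl2, and called 0 of these 9 in either direction on all genes with at least 1 count, with effective transcript lengths, where it called 0.456% of all genes higher and 2.36% lower. The log2FC was above 0 for 7 of the 10 genes, against 51.5% of all tested genes, and their median log2FC was 0.66, against 0.04 over all tested genes. The groups did not overlap for 5 genes that were higher in treated embryos (28.9% of all tested genes) and for 1 that was lower (28.3% of all tested genes). Patl2 passed the filter on low counts only through the treated libraries, where it was high, and the other 9 genes passed it in the control libraries as well. It is among the 7 genes above 0 and the 5 higher genes without overlap. With at least 10 counts required in every library, which leaves out Patl2, 6 of 9 genes had a log2FC above 0 by edgeR. Their median log2FC was then 0.67. With 2 libraries a group, the smallest two-sided p that exact permutation of the labels allows for a single value is 0.333. By a separate calculation, the smallest adjusted p that edgeR gave to any tested gene was 0.333 as well. Wherever an adjusted p of 0.333 by edgeR is printed for a gene, it is this shared minimum and does not set that gene apart.

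**Figure D1:**
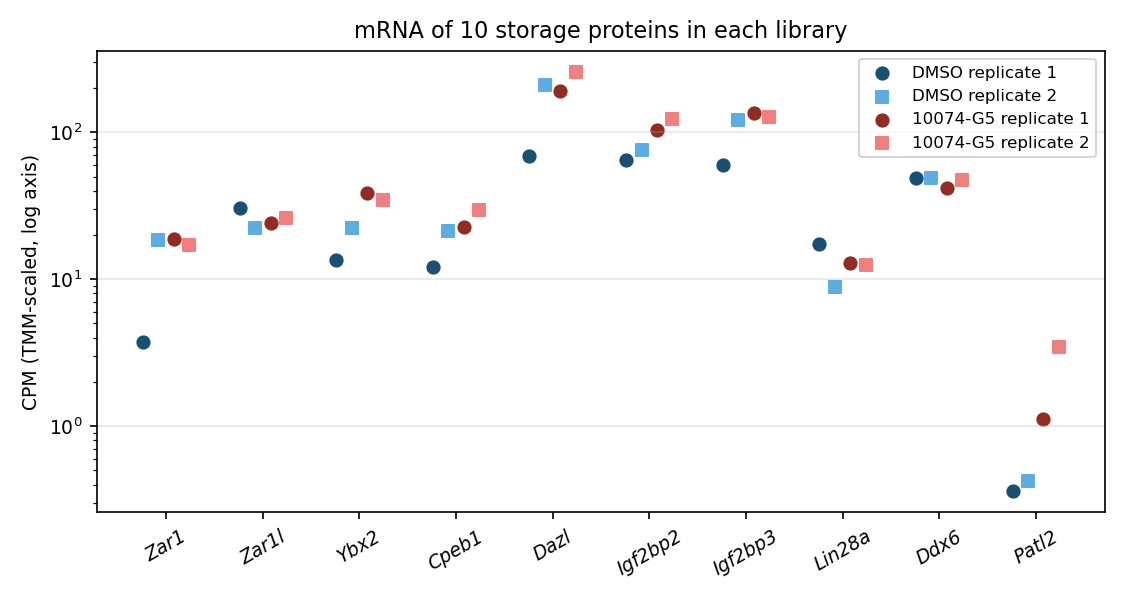
CPM (log axis) of each of the 10 mRNAs in each of the 4 libraries, with DMSO in blue and 10074-G5 in red, 1 point per library. DMSO replicate 1 is the lowest library for 7 of the 10 genes, with Zar1 at 3.71 CPM against 17.1 to 18.7 CPM in the other libraries.

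Zar1 and Zar1l, on chromosome 5, encode related zinc finger proteins of the oocyte that bind maternal mRNA, and Zar1 is known as a maternal-effect gene of the zygote. Zar1 (72577113 to 72581361) had 3.71 CPM in DMSO replicate 1, 18.6 CPM in DMSO replicate 2 and 18.7 and 17.1 CPM in the treated libraries. Its low value was that of DMSO replicate 1, DMSO replicate 2 lay among the treated libraries, and the groups overlapped. Control embryos averaged 11.2 ± 10.6 CPM (SD, n = 2) and treated embryos 17.9 ± 1.14 CPM (SD, n = 2). The log2FC of Zar1 was 0.68 with a standard error of 0.73, and its Benjamini-Hochberg adjusted p by edgeR was 0.658. Leaving out DMSO replicate 1 gave a log2FC of -0.04 and leaving out DMSO replicate 2 gave 2.27, so the direction of Zar1 rested on 1 control library. It was 1.09 with the replicate number as a block, and 1.09 to 1.23 by limma on log2 FPKM.

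Zar1l (150507055 to 150518194) had 30.7 and 22.2 CPM in the control libraries and 24.0 and 26.3 CPM in the treated libraries. Here DMSO replicate 1 was the highest library and DMSO replicate 2 the lowest, with both treated libraries between them. The log2FC of Zar1l was -0.07 with a 95% interval from -1.06 to 0.92 (adjusted p = 0.944 by edgeR). Changes within this interval, in either direction, were not excluded by these libraries. Against DMSO replicate 2 alone the log2FC of Zar1l was 0.19, and against DMSO replicate 1 alone it was -0.29. Within DMSO replicate 1 the FPKM of Zar1 (3.31) was 0.0737 times that of Zar1l (44.9), a ratio that was 0.510 in DMSO replicate 2 and 0.477 and 0.397 in the treated libraries. A ratio taken within a library does not depend on the scaling of the libraries, and the low Zar1 level of DMSO replicate 1 was thus not shared by its relative.

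Ybx2, on chromosome 11 from 69935805 to 69941604, encodes the germ cell Y-box protein that coats mRNA in oocytes and spermatids. It had 13.5 and 22.4 CPM in the control libraries and 38.5 and 34.7 CPM in the treated libraries. Both treated libraries lay above both control libraries. Control embryos averaged 17.97 ± 6.27 CPM (SD, n = 2) and treated embryos 36.6 ± 2.73 CPM (SD, n = 2), which differed 2.04-fold (log2FC 1.03 ± 0.45, standard error; unadjusted p = 0.0541 and adjusted p = 0.343 by edgeR). By DESeq2 with effective lengths its log2FC was 1.03 ± 0.51 (standard error; unadjusted p = 0.0437, adjusted p = 0.168), and the adjusted p lay between 0.0137 and 0.992 over all alternatives. Against DMSO replicate 2 alone the log2FC was 0.72, and against DMSO replicate 1 alone it was 1.43. Ybx1, the Y-box gene of most tissues, was far more abundant, at 326 and 314 FPKM in control and 299 and 333 FPKM in treated embryos. The ratio of Ybx2 to Ybx1 in FPKM was 0.0282 and 0.0576 in the control libraries and 0.104 and 0.0859 in the treated libraries, again with no overlap.

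Cpeb1, on chromosome 7 from 81347026 to 81458001, encodes the protein that recognizes the cytoplasmic polyadenylation element, and Dazl, on chromosome 17 from 50279393 to 50293620, encodes a germ cell protein that promotes or restrains the translation of stored mRNAs. Cpeb1 had 12.1 and 21.2 CPM in the control libraries and 22.5 and 29.4 CPM in the treated libraries. The groups did not overlap, but DMSO replicate 2 and treated replicate 1 lay close together. The log2FC of Cpeb1 was 0.64 ± 0.48 (standard error; adjusted p = 0.518 by edgeR), 0.31 without DMSO replicate 1 and 1.10 without DMSO replicate 2. The mean transcript length that RSEM assigned to Cpeb1, which follows the mix of its 3 listed transcripts, varied only between 3102 and 3111 bases over the libraries.

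Dazl, the mRNA with the highest mean FPKM of the 10 in both groups, had 69.2 and 209 CPM in the control libraries and 192 and 259 CPM in the treated libraries. As for Zar1, DMSO replicate 1 alone was low and DMSO replicate 2 lay between the treated libraries. Control embryos averaged 139 ± 98.5 CPM (SD, n = 2) and treated embryos 225 ± 46.98 CPM (SD, n = 2). The log2FC of Dazl was 0.70 with a standard error of 0.54 (adjusted p = 0.529 by edgeR). Without DMSO replicate 1 its log2FC was 0.13 and without DMSO replicate 2 it was 1.70.

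Igf2bp2 and Igf2bp3 encode IMP proteins that bind mRNA through KH domains and protect it from decay, and IGF2BP2 is known as a maternal factor of the early embryo. Igf2bp2, on chromosome 16 from 22059009 to 22163299, had 65.2 and 76.3 CPM in the control libraries and 104 and 123 CPM in the treated libraries. The control libraries lay close together and both treated libraries lay above them. Control embryos averaged 70.7 ± 7.88 CPM (SD, n = 2) and treated embryos 114 ± 13.4 CPM (SD, n = 2), which differed 1.61-fold (log2FC 0.68 ± 0.36, standard error; unadjusted p = 0.0932 and adjusted p = 0.384 by edgeR). Its log2FC moved least with the control library used among the 7 higher genes other than Patl2, to 0.59 without DMSO replicate 1 and 0.80 without DMSO replicate 2.

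Igf2bp3, on chromosome 6 from 49085218 to 49215469, had 60.3 and 121 CPM in the control libraries and 136 and 128 CPM in the treated libraries. DMSO replicate 1 was low, and DMSO replicate 2 lay just under the treated libraries. The log2FC of Igf2bp3 was 0.54 ± 0.43 (standard error; adjusted p = 0.540 by edgeR), 0.14 without DMSO replicate 1 and 1.13 without DMSO replicate 2. Exons of Malsu1, on the opposite strand, share 1529 exonic bases with Igf2bp3, and as the counting is not stated to use strand, reads there cannot be told apart. Malsu1 itself had between 2.96 and 10.2 CPM. The ratio of Igf2bp3 to Igf2bp2 in FPKM was 0.824 and 1.41 in the control libraries and 1.16 and 0.923 in the treated libraries, so the groups overlapped.

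Lin28a, on chromosome 4 from 134003330 to 134019196, encodes an RNA-binding protein known for blocking the maturation of let-7 microRNAs. It had 17.2 and 8.84 CPM in the control libraries and 12.8 and 12.6 CPM in the treated libraries. Both treated libraries lay between the control libraries. The log2FC of Lin28a was -0.04 with a 95% interval from -1.28 to 1.20 (adjusted p = 0.981 by edgeR), or 0.54 and -0.44 against DMSO replicate 2 alone and DMSO replicate 1 alone. Its paralogue Lin28b had 2.73 and 4.50 FPKM in control and 7.10 and 6.98 FPKM in treated embryos, so that the ratio of Lin28a to Lin28b in FPKM was 1.72 in DMSO replicate 1, against 0.638, 0.587 and 0.597 in DMSO replicate 2 and treated replicates 1 and 2. By FPKM, Lin28a was thus the more abundant paralogue in DMSO replicate 1 only, among these 4 libraries. Of the Lin28a exons, 103 bases are shared with Gm13061 on the opposite strand.

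Ddx6 belongs to the machinery of P-bodies, where silenced mRNA collects. Ddx6, on chromosome 9 from 44602983 to 44640731, encodes an RNA helicase of translational repression that is present in most cells. It had 49.2 and 48.6 CPM in the control libraries and 42.0 and 47.1 CPM in the treated libraries, all within a narrow range, with both treated libraries below the control libraries. The log2FC of Ddx6 was -0.13 with a 95% interval from -1.003 to 0.74 (adjusted p = 0.879 by edgeR), and it was -0.11 without DMSO replicate 1 and 0.00555 when libraries were scaled by their totals alone. Ddx6 also differed least between the control libraries, by 0.988-fold, where Zar1 differed by 5.02-fold and Dazl by 3.01-fold.

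Patl2, on chromosome 2 from 122120108 to 122186189, encodes the oocyte form of the PAT1 decay and repression factor. It had 6 and 8 counts in the control libraries and 24 and 72 counts in the treated libraries, or 0.359 and 0.424 CPM against 1.11 and 3.43 CPM. The treated libraries were higher, but they differed from each other by more than the control libraries did and the counts were low. The log2FC of Patl2 was 2.52 ± 1.35 (standard error; adjusted p = 0.395 by edgeR), and it lay from 1.49 to 3.15 when any 1 library was left out, with 2.43 without DMSO replicate 1. By limma on log2(FPKM + 1), a scale that understates changes of low genes, it was 0.79. The span of Patl2 overlaps B2m and Trim69 on the opposite strand, with 0 exonic bases shared. Patl1, its paralogue, had 4.0 and 7.25 FPKM in control and 14.1 and 11.4 FPKM in treated embryos, above Patl2 (0.15 to 1.69 FPKM) in every library.

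**Figure D2:**
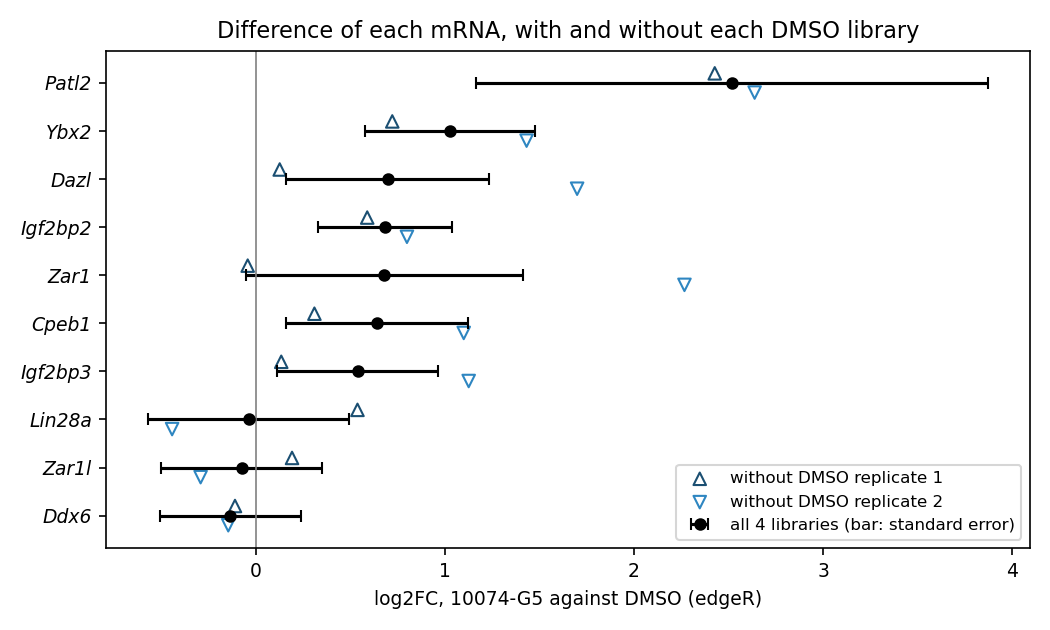
Log2FC of each mRNA in treated against control embryos by edgeR, over all 4 libraries (black points, bars the standard error) and with DMSO replicate 1 or DMSO replicate 2 left out (triangles). Zar1 moves from -0.04 to 2.27 with the control library used, whereas Igf2bp2 stays between 0.59 and 0.80 and Ddx6 near 0.

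Compared per length, the order of the mRNAs in control embryos by mean FPKM was Dazl (51.6 ± 41.1), Zar1l (41.8 ± 4.398), Igf2bp3 (21.9 ± 12.7), Igf2bp2 (18.8 ± 4.36), Ybx2 (13.6 ± 6.30), Zar1 (11.5 ± 11.6), Ddx6 (8.10 ± 0.912), Cpeb1 (5.76 ± 2.86), Lin28a (3.78 ± 1.29) and Patl2 (0.175 ± 0.0354; SD, n = 2 for each). Only Zar1l and Igf2bp3, and Lin28a and Patl2, were neighbours whose control values did not overlap. In treated embryos Dazl (88.1 ± 19.6 FPKM, SD, n = 2) and Zar1l (44.1 ± 3.58 FPKM, SD, n = 2) remained at the head and Lin28a (4.17 FPKM in both libraries) and Patl2 (1.12 ± 0.813 FPKM, SD, n = 2) at the end. There Cpeb1 (9.64 ± 1.94 FPKM, SD, n = 2) stood above Ddx6 (8.14 ± 0.728 FPKM, SD, n = 2), with overlapping values, and the ranges of Igf2bp3, Igf2bp2 and Ybx2 overlapped from one to the next. TPM gave the same order in control embryos.

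DMSO replicate 1 was the lowest library for 7 of the 10 mRNAs (Zar1, Ybx2, Cpeb1, Dazl, Igf2bp2, Igf2bp3 and Patl2), against 40.0% of all tested genes. The gap between the control libraries was larger than the gap from DMSO replicate 2 to the treated mean for 7 of the 10 (log2 CPM), against 65.4% of all tested genes. The 3 exceptions were Igf2bp2 and Patl2, whose treated mean CPM was 1.49-fold and 5.37-fold the level of DMSO replicate 2, and Ddx6, whose treated mean was 0.918-fold that level. Ybx2 lay close to the boundary, with DMSO replicate 2 at 1.66-fold the level of DMSO replicate 1 and the treated mean at 1.63-fold the level of DMSO replicate 2. Both treated libraries were above DMSO replicate 1 for 7 genes and above DMSO replicate 2 for 7 genes, without a share over all tested genes computed for either set. Only 5 genes, Patl2 among them, were in both sets, against 28.9% of all tested genes. After the mean of each gene was subtracted, the median log2 CPM of the 10 mRNAs was -0.76 and -0.06 in the DMSO replicates 1 and 2, and 0.18 and 0.45 in the treated replicates 1 and 2. Their median log2FC was 0.25 against DMSO replicate 2 alone and 1.11 against DMSO replicate 1 alone. Without DMSO replicate 2, edgeR called 4 of the 10 genes higher (Zar1, Ybx2, Dazl and Igf2bp3) and 14.6% of all tested genes, and without DMSO replicate 1 it called 0 of them and 0.00679% of all tested genes higher. An unadjusted p under 0.05 was reached by 6 of the 10 without DMSO replicate 2, against 42.0% of all tested genes, and by 1, Igf2bp2, without DMSO replicate 1, against 13.8%.

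Transcripts known from the oocyte but not from storage were spread over the libraries in a like way. A list of 20 such genes, among them those of zona pellucida proteins and of the subcortical maternal complex, had a centred median log2 CPM of -1.10 in DMSO replicate 1, 0.05 in DMSO replicate 2, 0.36 in treated replicate 1 and 0.47 in treated replicate 2. Of these 20 genes, 17 had a log2FC above 0 and 3 below (Zp3, Khdc3 and Figla), the median log2FC was 0.66, and edgeR called 0 of them. Zp3, of the zona pellucida, had 244 and 75.1 CPM in control and 59.1 and 63.9 CPM in treated embryos. Its log2FC was -1.37, or -0.27 without DMSO replicate 1. The log2FC of Khdc3 was -0.14 and changed sign to 0.32 without DMSO replicate 1, and that of Figla was -0.05, or -0.85 without it. Against DMSO replicate 2 alone the median was 0.33, and against DMSO replicate 1 alone it was 1.64. The smallest unadjusted p-values of the list were those of Nobox, Oosp1, Nlrp14 and Gdf9. Nobox, an oocyte homeobox factor, had 11.8 and 22.6 CPM in control and 63.3 and 60.0 CPM in treated embryos (log2FC 1.84 ± 0.46, standard error; adjusted p = 0.333 by edgeR, 0.0134 by DESeq2 with effective lengths and from 0.000884 to 0.992 over all alternatives). Oosp1, which encodes an oocyte-secreted protein, had 378 and 898 CPM in control and 2125 and 1638 CPM in treated embryos (log2FC 1.56, adjusted p = 0.333 by edgeR, 0.0292 by DESeq2 with effective lengths and from 0.000483 to 0.992 over all alternatives). Nlrp14 and Gdf9, the latter a growth factor secreted by the oocyte, had a log2FC of 1.09 and 1.32, which became 0.73 and 0.79 without DMSO replicate 1 and 1.598 and 2.21 without DMSO replicate 2. Without DMSO replicate 1 the log2FC was 1.46 for Nobox and 1.08 for Oosp1. The two-cell markers had a centred median of -1.49 in DMSO replicate 1 and of 0.24, 0.62 and 0.49 in DMSO replicate 2 and treated replicates 1 and 2. The part of this library-wide difference in the values of the 10 storage mRNAs was not tested.

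**Figure D3:**
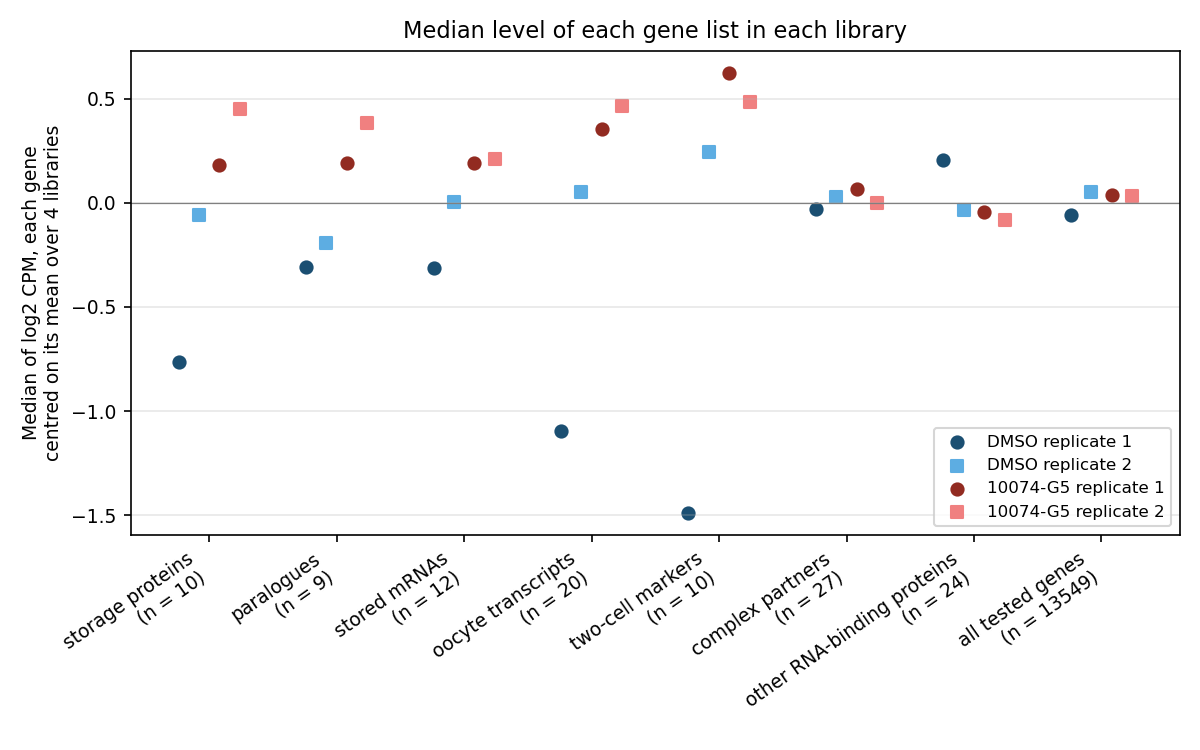
Median log2 CPM of each gene list in each library, every gene centred on its mean over the 4 libraries (n, genes tested per list). The storage proteins are lowest in DMSO replicate 1 (-0.76) and highest in treated replicate 2 (0.45), while the oocyte transcripts and two-cell markers lie at -1.10 and -1.49 in DMSO replicate 1 and complex partners and all tested genes lie near 0 in every library.

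Paralogues of the 10 genes were described in the same way. Of 9 paralogues (Ybx1, Ybx3, Cpeb2, Cpeb3, Cpeb4, Igf2bp1, Lin28b, Patl1 and Boll), 7 had a log2FC above 0, their median log2FC was 0.50 and edgeR called 0 of them. The groups did not overlap for 5, all higher in treated embryos, against 28.9% of all tested genes higher and 28.3% lower, and the centred median log2 CPM of the list was -0.31 and -0.19 in the control libraries and 0.19 and 0.38 in the treated libraries. Patl1, a P-body factor of most cells, had 18.1 and 27.5 CPM in control and 53.6 and 42.6 CPM in treated embryos, with both treated libraries higher (log2FC 1.08 ± 0.43, standard error; unadjusted p = 0.0378 and adjusted p = 0.333 by edgeR). Its log2FC was 0.82 without DMSO replicate 1. Lin28b and Cpeb2 had a log2FC of 0.84 and 0.78 (adjusted p = 0.375 and 0.376 by edgeR), which became 0.64 and 0.86 without DMSO replicate 1. Boll, a relative of Dazl known from male germ cells, had 4 and 17 counts in control and 35 and 54 counts in treated embryos (log2FC 1.86 ± 1.34, standard error; adjusted p = 0.5 by edgeR), and 1.23 and 3.10 were the log2FC of Boll without DMSO replicate 1 and DMSO replicate 2. By the control libraries alone Boll would not have passed the filter on low counts.

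**Figure D4:**
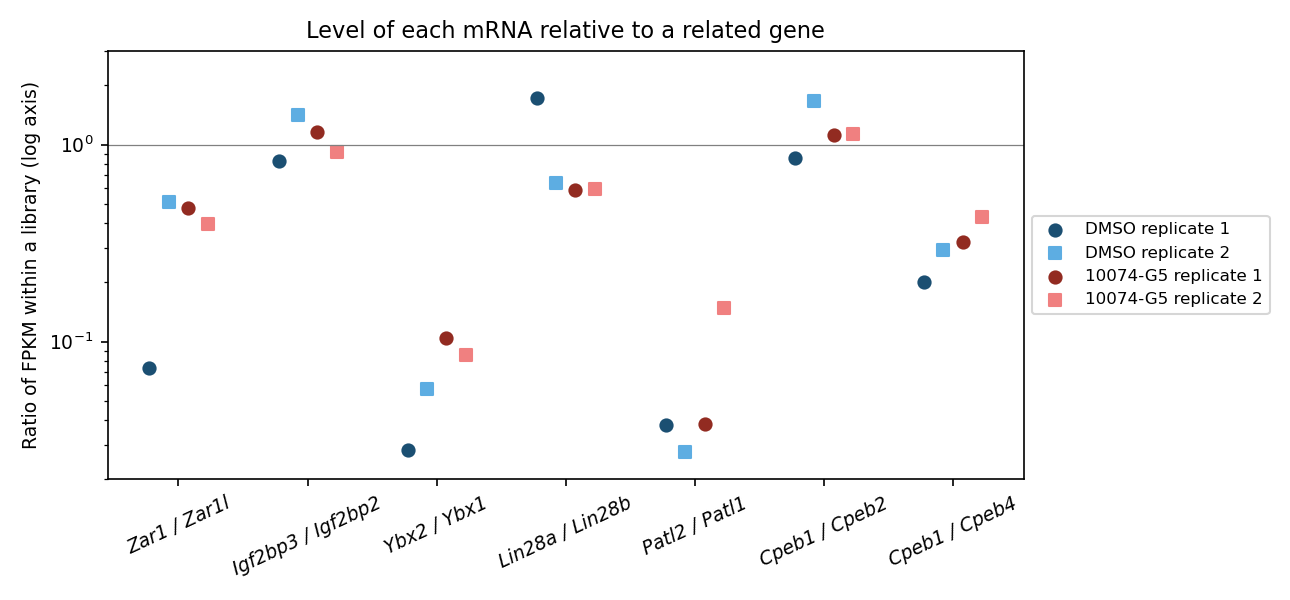
Ratio of the FPKM of a storage mRNA to that of a related gene within each library (log axis), with DMSO in blue and 10074-G5 in red. Zar1 is 0.0737 times Zar1l in DMSO replicate 1 and at least 0.397 times Zar1l elsewhere, and Ybx2 relative to Ybx1 is higher in both treated libraries. The same holds for Patl2 to Patl1 and Cpeb1 to Cpeb4, while Lin28a to Lin28b is lower in both treated libraries. No share over other gene pairs was computed.

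Proteins that act with the storage proteins were listed as 28 genes, of which 27 were tested: cap-binding proteins, P-body and stress granule components, poly(A)-binding proteins, decapping factors and regulators of polyadenylation. The median log2FC of the 27 was 0.06, with 15 above 0 and 12 below, and edgeR called 0 of them. An unadjusted p under 0.05 was found for 3 higher and 4 lower genes of the 27, against 4.72% and 10.1% of all tested genes. Eif4e1b, the cap-binding protein of the oocyte that works with CPEB1, had 12.3 and 38.9 CPM in control and 74.8 and 79.0 CPM in treated embryos. Both treated libraries were the highest for Eif4e1b, with 1.59 ± 0.57 as the log2FC and its standard error (adjusted p = 0.333 by edgeR), or 0.999 without DMSO replicate 1. Aurka, a kinase that acts on CPEB1 in meiotic maturation and on the spindle in dividing cells, had 690 and 372 CPM in control and 194 and 268 CPM in treated embryos. Both treated libraries were the lowest for Aurka, with -1.20 ± 0.44 as the log2FC and its standard error (adjusted p = 0.333 by edgeR), or -0.67 without DMSO replicate 1. G3bp1, a stress granule protein, had 233 and 129 CPM in control and 83.1 and 97.6 CPM in treated embryos, with a log2FC of -0.999 that became -0.49 without DMSO replicate 1. Edc3, an enhancer of decapping, had 114 and 69 counts in control and 5 and 1 counts in treated embryos (log2FC -5.16 ± 1.17, standard error; unadjusted p = 0.00264 and adjusted p = 0.333 by edgeR). Its log2FC was -4.64 without DMSO replicate 1, and both values rest on the few treated counts. Edc3 passed the filter on low counts only through the control libraries, where it was high.

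Other RNA-binding proteins known from oocytes or from the control of translation were listed as 25 genes. The 24 that were tested had a median log2FC of -0.06, with 11 above 0 and 13 below, and edgeR called 0 of them. Larp4, which binds poly(A)-containing mRNA, had 1455 and 882 CPM in control and 494 and 564 CPM in treated embryos (log2FC -1.14 ± 0.41, standard error; adjusted p = 0.333 by edgeR). Larp1, a regulator of mRNAs of the translation machinery, had 64.9 and 31.98 CPM in control and 20.5 and 19.5 CPM in treated embryos (log2FC -1.28 ± 0.47, standard error; adjusted p = 0.333 by edgeR). Without DMSO replicate 1 the log2FC was -0.72 for Larp4 and -0.66 for Larp1. Nanos2, known as a translational repressor of male germ cells, was higher in treated embryos, with 4.55 and 9.05 CPM in control and 28.7 and 16.9 CPM in treated embryos (log2FC 1.74 ± 0.57, standard error; adjusted p = 0.333 by edgeR), and a log2FC of 1.34 without DMSO replicate 1. Samd4, a relative of the fly repressor Smaug, had 0 counts in both control libraries and 21 and 31 counts in the treated libraries, a level at least 7.25-fold higher when 3 counts are allowed for each control library (adjusted p = 0.333 by edgeR). Both control libraries of Samd4 were at 0, so the bound does not turn on DMSO replicate 1, and the median of the list was the same with Samd4 at this bound. Samd4 passed the filter on low counts only through the treated libraries, where it was high.

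A list of 12 mRNAs known to be held back in oocytes and translated later gave a median log2FC of 0.42, with 8 genes above 0 and 4 below, and edgeR called 0 of them. Btg4 and Cnot7, which act in the deadenylation of maternal mRNA, had a log2FC of 1.45 (adjusted p = 0.352 by edgeR) and 0.96 (adjusted p = 0.351 by edgeR). Btg4 had 652 and 2721 CPM in control and 5717 and 3491 CPM in treated embryos, and Cnot7 had 629 and 1242 CPM in control and 1948 and 1701 CPM in treated embryos. Both were lowest in DMSO replicate 1, and the log2FC of Btg4 and Cnot7 became 0.77 and 0.57 without that library and 2.82 and 1.53 without DMSO replicate 2. Ccnb1 and Tpx2, which encode a mitotic cyclin and a spindle protein, had a log2FC below 0, with DMSO replicate 1 the highest library. The CPM of Ccnb1 was 6145 and 3479 in control and 2368 and 2885 in treated embryos (log2FC -0.87, adjusted p = 0.377 by edgeR), and that of Tpx2 was 899 and 597 in control and 338 and 394 in treated embryos (log2FC -1.03, adjusted p = 0.333 by edgeR). Without DMSO replicate 1 the log2FC was -0.39 for Ccnb1 and -0.69 for Tpx2.

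**Figure D5:**
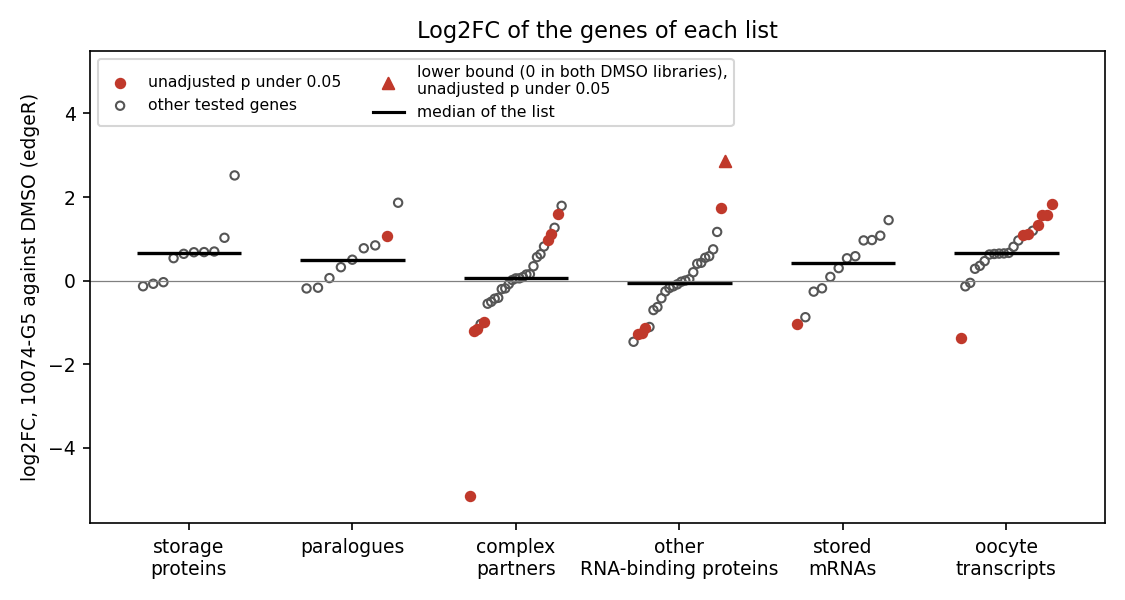
Log2FC (edgeR) of every tested gene of each list, with genes at an unadjusted p under 0.05 in red, a bar at the median of the list, and Samd4 drawn as a triangle at its lower bound. None of the 10 storage mRNAs is red, their median is 0.66, and the lowest point among the complex partners is Edc3, which rests on 5 and 1 counts in treated embryos. Samd4 and Edc3 passed the filter on low counts only through the group where they were high.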

How the data were processed

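RNA of 10 late two-cell embryos per library was sequenced by the authors from oligo(dT)-primed SMART-Seq v4 PLUS cDNA (paired-end), aligned to mm10 with STAR 2.7.10 and quantified with RSEM 1.3.3. The deposited tables give expected counts (estimated fragments per gene), and the FPKM and TPM values that the authors' RSEM run scaled to transcript length and library size. Expected counts were rounded (3.97 to 4.49% of values were not whole) and genes filtered with filterByExpr (at least 10 counts, total 15), which left 13549 genes. edgeR 4.0.16 (R 4.3.3; TMM factors, robust quasi-likelihood fit, Benjamini-Hochberg adjustment over all tested genes) compared 2 treated with 2 control libraries, called at |log2FC| above 1 and adjusted p under 0.05. The standard error is the log2FC divided by the square root of F. DESeq2 1.42.0, limma 3.58.1 on log2(FPKM + 1) or log2(FPKM + 0.1), other normalizations and filters, a replicate block and removal of each library were alternatives (15 in all). FPKM served to compare genes, to describe some paralogues in each group, and as the input of limma. Scripts were tested on simulated counts of 2 libraries a group, each gene drawn on its own with the spread that edgeR estimated for it. A shift of 1 library over many genes together, as in DMSO replicate 1, was not simulated. The rates that follow thus describe the simulation and need not hold for the calls in these data. Of genes simulated with a log2FC of 2 in size, edgeR called 10.7%, DESeq2 41.8% and limma 4.95%. Each share is of the changed genes that the tool's own filter kept, which were 562 for edgeR, 600 for DESeq2 and 465 for limma. Unchanged genes made up 0% of the calls of edgeR, 36.0% of those of DESeq2 and 8% of those of limma. The genes and lists were chosen with earlier results of these data known. Every storage gene was named, with the 4 genes of smallest unadjusted p from each of 5 further lists (paralogues, partners, other RNA-binding proteins, stored mRNAs, oocyte transcripts). The 3 oocyte transcripts with a log2FC below 0 were named too, and 3 marker lists were given as summed levels.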

Additional observations from a re-analysis of the deposited data

How the results depend on the processing

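Over all tested genes, edgeR called 0 genes higher and 0 lower in treated embryos, with 2013 at an unadjusted p under 0.05. DESeq2 called 95 higher and 471 lower on the filtered genes, 87 and 437 on all genes, and 83 and 429 with effective lengths, and edgeR with no filter on low counts called 165 and 479. When 1 library was left out, these counts ran from 1 to 2148 higher and from 1 to 2065 lower, with the highest in both directions without DMSO replicate 2. The treated and control libraries shared only a replicate number (r of their deviations -0.07 over 13549 genes), and with the replicate block edgeR called 12 genes higher, 32 lower and 0 of the 10 storage genes, while the log2FC of Lin28a became 0.0412 and that of Zar1 1.09. Of the storage genes with an adjusted p (10, or 9 without Patl2 in 6 of the 15 alternatives: DESeq2, limma with a filter, and at least 10 counts in every library), the alternatives called 0 in either direction except without DMSO replicate 2, which called 4 higher (range 0 to 4 over the libraries left out). The number with an unadjusted p under 0.05 was 1, Ybx2, with each DESeq2 fit, each limma fit and no filter. The shares over all genes were not computed for these fits. With a library left out, the median log2FC of the storage genes ran from 0.25 to 1.11, and the log2FC from -0.0421 to 2.27 for Zar1, 0.72 to 1.43 for Ybx2, 0.13 to 1.70 for Dazl, 0.14 to 1.13 for Igf2bp3, -0.29 to 0.19 for Zar1l, -0.44 to 0.54 for Lin28a and -0.22 to -0.01 for Ddx6. The 3 genes with a log2FC near 0 changed sign with the scaling. By limma (pseudocount 1, pseudocount 0.1, and 1 with no filter), Zar1l came to 0.0748, 0.0764 and 0.0748, Lin28a to 0.14, 0.18 and 0.14, and Ddx6 to 0.00926, 0.0104 and 0.00926, and with library totals they came to 0.0838, 0.14 and 0.00555. Library totals also moved the median of all tested genes from 0.04 to 0.17, and 7 of the 10 genes lay above that median in both cases. Limma also gave 1.09, 1.23 and 1.09 for Zar1 and, with no filter, 0.79 for Patl2. The list medians that moved were those of paralogues (0.64, 0.66 and 0.64 by limma, 0.38 to 0.71 with a library left out), partners (-0.0015 by DESeq2 with lengths, 0.16, 0.20 and 0.14 by limma, 0.16 with library totals, -0.13 to 0.0765 with a library left out), other RNA-binding proteins (0.10 by limma with no filter, 0.11 with library totals, -0.26 to -0.0397 with a library left out), oocyte transcripts (0.33 to 1.64) and two-cell markers (0.32 to 2.18). The cause of these changes was not tested. A library left out leaves 1 library in its group, which is then assumed to vary like the other group.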
